A study of Mus musculus with 16 samples.

Results

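The comparison described here sets alveolar epithelial type II (AT2) cells of Fgf10+/- mouse pups against those of wild-type pups after hyperoxia. Its members are the samples whose titles name each genotype together with hyperoxia: 2 Fgf10+/- and 6 wild-type samples, 8 of the 16 arrays of the series. The pups of these 8 samples were 3 days old and had been kept in 85% oxygen from postnatal day 0 to day 3. The other 8 arrays, 4 Fgf10+/- and 4 wild-type samples from normoxia at the same age, gave part of the estimate of spread and the difference between genotypes without extra oxygen. The series text states a group size of 4 throughout, so the sample labels and that text disagree for hyperoxia, and the labels were followed. The labels do not describe the Fgf10 allele, the sorting of the cells, the sex of the pups or whether a sample is 1 pup or a pool, so the p-values measure the spread between these samples, which may be partly technical.

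Fgf10 is a growth factor secreted by lung mesenchyme that signals through the receptor Fgfr2b on epithelial cells and drives branching and the AT2 lineage. A heterozygous loss leaves 1 working copy of the gene. AT2 cells make surfactant, act as progenitors of the flat AT1 cells that exchange gas, and carry MHC class II molecules at their surface. High oxygen in newborn mice disturbs the formation of alveoli and serves to model bronchopulmonary dysplasia. The comparison asks whether Fgf10 dose alters the state of AT2 cells under that injury.

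No gene passed the threshold between genotypes in hyperoxia. Among the genes with both Fgf10+/- values below all 6 wild-type values were genes of the MHC class II pathway, with Cd74 2.64-fold lower and H2-Eb1 2.04-fold lower in Fgf10+/-, and myeloid genes such as Clec7a, 4.15-fold lower, and Ctss, 4.00-fold lower. The median of the MHC class II list, which also holds Ctss, was -0.07 on the log2 scale, and 8 of its 16 members had a positive difference. The macrophage marker Csf1r had both Fgf10+/- values above all wild-type values. The mean of the AT1 markers lay above the wild-type range in only 1 of the 2 Fgf10+/- samples, and that of the AT2 markers below it in only the other. Both values lay outside the wild-type range on the same side for 0 of 20 FGF ligands and receptors and for 2 of 25 FGF targets. Of all genes 3.31% had both values below that range and 3.67% both above.

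With 20725 genes tested by limma and a Benjamini-Hochberg adjusted p under 0.05 as the threshold, 0 genes were called (0%), and the smallest adjusted p was 0.289. At an unadjusted limma p under 0.05 there were 906 genes, 574 lower (2.77% of those tested) and 332 higher (1.60%) in Fgf10+/-. Both Fgf10+/- values lay below all 6 wild-type values for 687 genes (3.31%) and above all of them for 761 (3.67%). For another 707 genes (3.41%) 1 Fgf10+/- sample lay above and the other below the entire wild-type range. These shares are the background against which each gene list is read below. The median difference of all genes was 0.02 on the log2 scale.

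Precision differed between genes. The 95% interval of the genotype difference had a median half-width of 0.72 log2 units and lay within 1 log2 unit of zero for 53.8% of genes. Among the 8299 genes with a mean of at least 6 the share was 77.2%, or 6404 genes. In simulated data with the same samples and genes, the fit recovered 17.8% of 2-fold and 72% of 4-fold changes. For most genes with a lower mean the interval reached beyond 1 log2 unit. Over all deposited values the 25th percentile was 3.80, the median 4.34 and the 75th percentile 5.72, which gives the scale on which a gene can be read as dim or bright.

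The labelled cell type could be checked by its markers. Sftpc, the surfactant protein C gene that defines AT2 cells, was at 15.98 in both Fgf10+/- samples and at 15.95 to 15.98 in wild type. It lay within 0.05 of the highest value of the array on all 16 arrays, so a difference in it was not measurable. Sftpb, the surfactant protein needed for a stable surface film, was at 14.55 and 13.32 in Fgf10+/- replicates 1 and 2 and at 13.80 to 14.29 (median 14.11) in wild type. Markers of other cells were present too, with list means over the 8 hyperoxia samples of 9.20 to 12.55 for club cells, 8.38 to 9.55 for fibroblasts and 7.58 to 8.83 for endothelial cells. In such mixed RNA fewer cells of a type and less RNA per cell cannot be told apart. Eif2s3y, a Y-linked translation factor gene, was at 3.47 and 4.13 in the Fgf10+/- samples, at 3.39, 3.79 and 4.32 in 3 wild-type samples and at 8.27, 8.47 and 8.62 in the other 3. The part of sex in the values below was not tested.

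MHC class II molecules display peptides from degraded proteins to helper T cells. Their α and β chains pair in the presence of the invariant chain Cd74, H2-DM loads the peptide, and the coactivator Ciita, with the RFX factors and NF-Y, turns the genes on. NF-Y binds a CCAAT sequence called the Y box, here read on the opposite strand as TGATTGG. RefSeq promoter windows on GRCm38.p6, from 250 bases before to 50 after the gene start, were searched for TGATTGG on both strands as the only motif. It was found in 2568 of 32851 windows, 7.82% of all. In the MHC class II list 12 of 16 genes had a window, and 8 of them held it: H2-Aa, H2-DMb1, H2-DMb2, H2-Eb1, H2-Eb2, H2-Oa, H2-Ob and Rfx5. A match is a description of these letters and not a measured binding site. H2-Ab1 was matched to no window. The windows of 3 genes that hold it and had lower values in Fgf10+/- are printed from 5′ to 3′ on the gene's strand, with TGATTGG in capitals. They are H2-Aa at chr17:34287774-34288073 on the minus strand, H2-Eb1 at chr17:34305617-34305916 on the plus strand and H2-DMb1 at chr17:34152941-34153240 on the plus strand. The motif begins 50, 61 and 63 bases before the gene start. Other letters that the windows share were not marked. H2-DMb2, H2-Eb2, H2-Oa, H2-Ob and Rfx5 hold the motif but did not have both Fgf10+/- values below the wild-type range. Cd74 and Ctss had both values below that range and are not among the 8 genes with the motif. Whether the motif relates to the values was not tested.
H2-Aa: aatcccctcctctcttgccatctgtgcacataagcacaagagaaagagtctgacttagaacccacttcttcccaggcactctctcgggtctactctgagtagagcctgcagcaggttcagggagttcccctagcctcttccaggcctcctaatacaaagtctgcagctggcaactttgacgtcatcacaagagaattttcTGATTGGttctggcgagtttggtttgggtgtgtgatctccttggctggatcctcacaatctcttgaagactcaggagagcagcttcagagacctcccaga
H2-Eb1: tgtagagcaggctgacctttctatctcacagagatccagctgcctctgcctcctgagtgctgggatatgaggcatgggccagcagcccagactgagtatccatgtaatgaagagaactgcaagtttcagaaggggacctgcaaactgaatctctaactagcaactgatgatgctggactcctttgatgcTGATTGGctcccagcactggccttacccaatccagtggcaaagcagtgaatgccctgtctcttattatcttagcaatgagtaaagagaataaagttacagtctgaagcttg
H2-DMb1: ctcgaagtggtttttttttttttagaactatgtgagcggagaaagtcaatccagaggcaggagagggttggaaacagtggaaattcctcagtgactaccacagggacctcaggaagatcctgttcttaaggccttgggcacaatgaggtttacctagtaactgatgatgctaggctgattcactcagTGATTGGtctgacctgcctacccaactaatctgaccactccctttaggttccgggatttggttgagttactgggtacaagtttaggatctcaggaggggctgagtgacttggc

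The invariant chain gene Cd74 was at 8.08 and 7.42 in Fgf10+/- replicates 1 and 2 and at 8.78 to 9.93 in the 6 wild-type samples, with a median of 9.03. Every Fgf10+/- value was thus below every wild-type value. The difference was -1.40 on the log2 scale (SE 0.35, 95% interval -2.15 to -0.66, limma adjusted p = 0.746). The gene H2-Ab1, the β chain of the I-A molecule, was at 7.75 and 8.16 in Fgf10+/- and at 8.54 to 9.16 (median 8.73) in wild type. The groups did not overlap, and the difference was -0.80 (SE 0.23, limma adjusted p = 0.938). A second H2-Ab1 feature gave -1.08.

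The 3 further genes had the same order. H2-Eb1, the β chain of I-E, was at 7.54 and 7.58 in Fgf10+/- against 8.21 to 9.15 (median 8.49), a difference of -1.03 (SE 0.32, limma adjusted p = 0.946). H2-Aa, the α chain of I-A, was at 4.65 and 4.81 against 5.35 to 6.59 (median 5.77), a difference of -1.17 (SE 0.39, limma adjusted p = 0.982). H2-DMb1, a chain of the peptide loader, was at 5.80 and 5.88 against 6.39 to 7.07 (median 6.52), a difference of -0.80 (SE 0.28, limma adjusted p = 1.00). In these 3 genes the Fgf10+/- samples lay close together and below the lowest wild-type sample. H2 genes are similar in sequence, and a probe of this family may bind more than 1 of them.

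Among all 16 members of the MHC class II list 6 had both Fgf10+/- values below all wild-type values, against 3.31% of genes, and the same 6 had an unadjusted limma p under 0.05, against 2.77%. They were the 5 genes above and Ctss, the protease cathepsin S that trims the invariant chain. The list median was only -0.07, since the remaining 10 members ranged from -0.46 to 0.52. Of those, H2-DMa was at 4.21 and 4.46 in Fgf10+/- and at 4.19 to 5.47 in wild type, and the groups overlapped. Ciita, the coactivator, was at 4.46 and 3.84 against 3.42 to 4.61 in wild type, a difference of 0.04 with a 95% interval of -0.79 to 0.87, on a dim feature. Most other members of the list, among them H2-Eb2 and H2-DMb2, were dim as well.

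Without extra oxygen these genes did not have this order. H2-Ab1 was at 10.48 to 10.71 in the 4 Fgf10+/- normoxia samples and at 9.57 to 10.26 in the 4 wild-type ones, so Fgf10+/- was higher there, by 0.61. The difference between the 2 genotype differences was -1.41 (SE 0.30, limma interaction adjusted p = 0.595). H2-Eb1 was 0.52 higher in Fgf10+/- in normoxia, with an interaction of -1.55 (SE 0.42, limma adjusted p = 0.988). Cd74 was 0.25 higher, with an interaction of -1.65 (SE 0.47, limma adjusted p = 0.988). H2-Aa and H2-DMb1 differed by -0.04 and 0.10 in normoxia. None of these interactions passed the adjusted threshold.

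**Figure D1:**
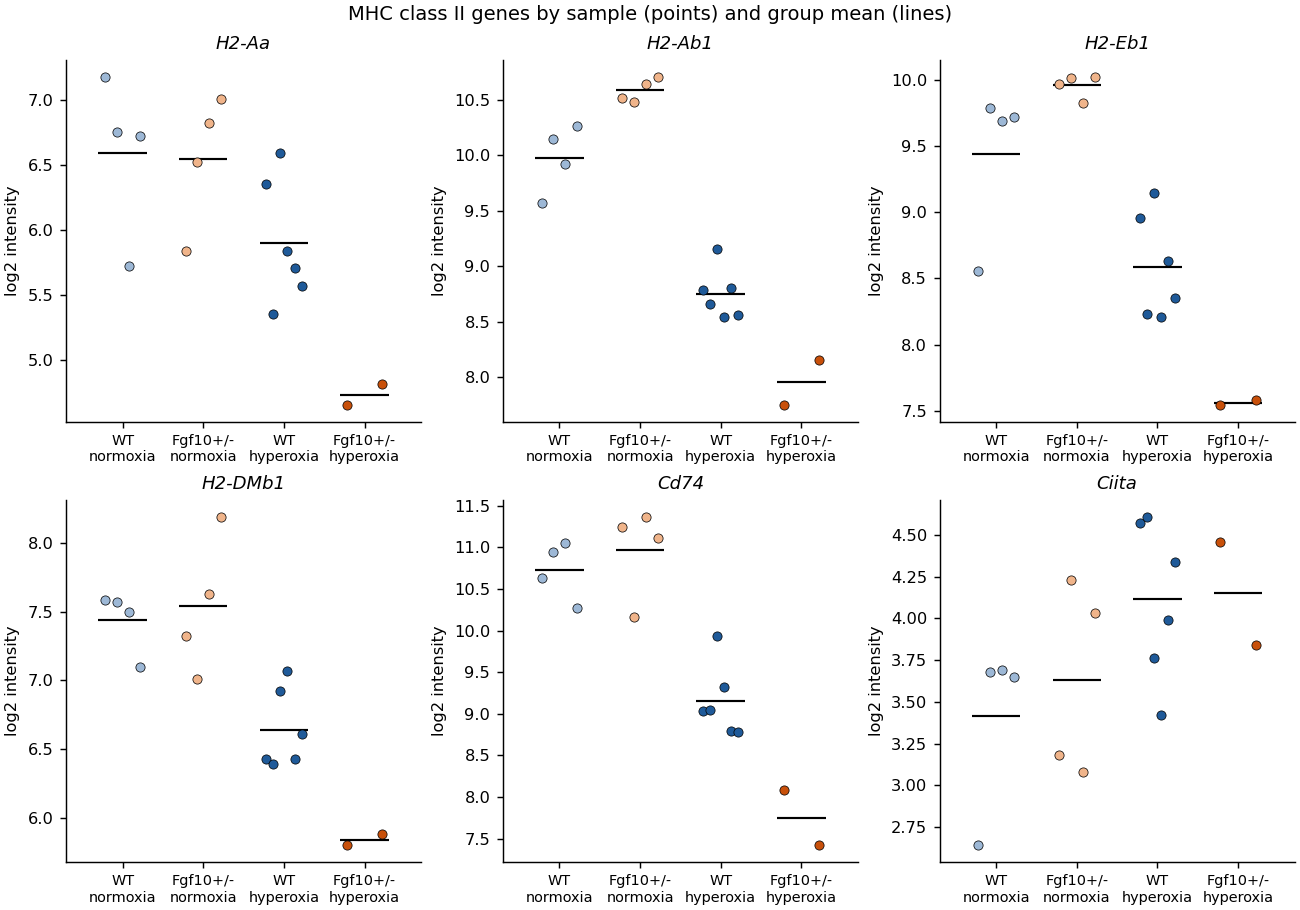
Log2 intensity of 5 MHC class II genes and Ciita in each of the 16 samples, by genotype and oxygen, with 1 point per sample and a line at the group mean (wild type n = 4 and 6, Fgf10+/- n = 4 and 2). In hyperoxia the 2 Fgf10+/- points of H2-Aa, H2-Ab1, H2-Eb1, H2-DMb1 and Cd74 lie below all 6 wild-type points, while those of Ciita lie within the wild-type range.

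Most macrophage markers had lower means in Fgf10+/- in hyperoxia and in normoxia, where 11 of 14 had a negative difference. Macrophages share the alveolar space with AT2 cells and are themselves rich in cathepsin S. Of the 14 macrophage markers 12 had a negative difference in hyperoxia, with a median of -0.44, against 47.3% negative among all genes. In 4 markers both Fgf10+/- values lay below all wild-type values (Marco, Itgax, Ear2 and Chil3) and in 2 above (Csf1r and, on 1 of its 10 features, C1qc), against 3.31% and 3.67% of genes. An unadjusted limma p under 0.05 was reached by Marco, Itgax and Ear2, and 0 markers passed adjustment.

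Ear2, an eosinophil-associated ribonuclease abundant in alveolar macrophages, was at 7.41 and 6.85 in Fgf10+/- and at 7.74 to 10.01 (median 8.95) in wild type. The difference was -1.87 (SE 0.56, limma adjusted p = 0.938), and transcripts of its close relatives in the Ear family may bind the same probe. Marco, a scavenger receptor for bacteria and particles, was at 7.37 and 6.91 against 7.84 to 9.75 (median 8.56), a difference of -1.63 (SE 0.55, limma adjusted p = 0.982). Each gene had both Fgf10+/- samples below the wild-type range. Itgax, the integrin CD11c, was at 5.73 and 5.65 against 6.03 to 7.24, a difference of -0.87 (SE 0.31, limma adjusted p = 1.00).

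Csf1r, the receptor of the macrophage growth factor, lay above the wild-type range, at 10.11 and 9.65 in Fgf10+/- and 9.20 to 9.57 in wild type, a difference of 0.45 (95% interval -0.09 to 1.00). In normoxia the difference of Csf1r was 0.23, and the groups overlapped. C1qc, a chain of complement C1q, was at 5.20 and 5.57 against 4.65 to 5.14 on its brightest feature, a difference of 0.53, but the other 9 features gave -0.65 to 0.32 and the mean of all 10 gave -0.21, so its direction was not settled. The general macrophage marker Adgre1 overlapped, at 3.99 and 4.88 against 4.19 to 5.37, and so did Siglecf, a marker of alveolar macrophages, at 3.72 and 4.11 against 4.04 to 5.33. The list mean was 5.61 and 5.52 in the Fgf10+/- samples and 5.84 to 6.50 in wild type. In normoxia it was 4.95 to 5.30 in Fgf10+/- and 5.12 to 6.29 in wild type.

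Outside that list 4 more genes linked to phagocytes were lower. Clec7a, the β-glucan receptor Dectin-1, was at 6.38 and 6.07 in Fgf10+/- against 7.40 to 9.55 (median 8.15), a difference of -2.05 (SE 0.44, 95% interval -2.98 to -1.13, limma adjusted p = 0.672). Ctss was at 8.18 and 7.87 against 8.97 to 11.16 (median 9.91), a difference of -2.00 (SE 0.50, limma adjusted p = 0.746). For both genes the highest Fgf10+/- value was below the lowest wild-type value. Ccl6, a chemokine of macrophages and neutrophils, was at 9.33 and 8.47 against 9.70 to 12.01, a difference of -2.04 (SE 0.55, limma adjusted p = 0.927). Mpeg1, a pore-forming protein of macrophages, was at 6.88 and 6.97 against 7.57 to 9.65, a difference of -1.59 (SE 0.45, limma adjusted p = 0.938).

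In normoxia the genotype differences of Clec7a, Ctss, Ccl6, Marco and Ear2 were -1.24, -1.80, -2.60, -2.08 and -2.62. Their interactions with oxygen were -0.81, -0.20, 0.56, 0.45 and 0.75 (SE 0.58, 0.66, 0.72, 0.73 and 0.75, limma adjusted p = 1.00 for each). Without extra oxygen H2-Ab1, H2-Eb1 and Cd74 thus had higher means in Fgf10+/-, while these 5 genes had lower ones. Whether the 2 groups of genes differ in this was not tested. When the macrophage list mean of each array was added to the fit, Ctss was at -1.06, Clec7a at -1.28, Marco at -0.65 and Ear2 at -0.83, where Marco and Ear2 belong to the list itself. With the same covariate Cd74 was at -1.52, H2-Eb1 at -1.02, H2-DMb1 at -0.96, H2-Aa at -0.79 and H2-Ab1 at -0.72, and 0 genes were called. In hyperoxia the covariate was itself lower in both Fgf10+/- samples (5.61 and 5.52) than in all wild-type samples (5.84 to 6.50). The fit therefore cannot fully separate it from genotype, and it was added after seeing the data. The part of macrophage RNA in either group of genes was not tested.

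**Figure D2:**
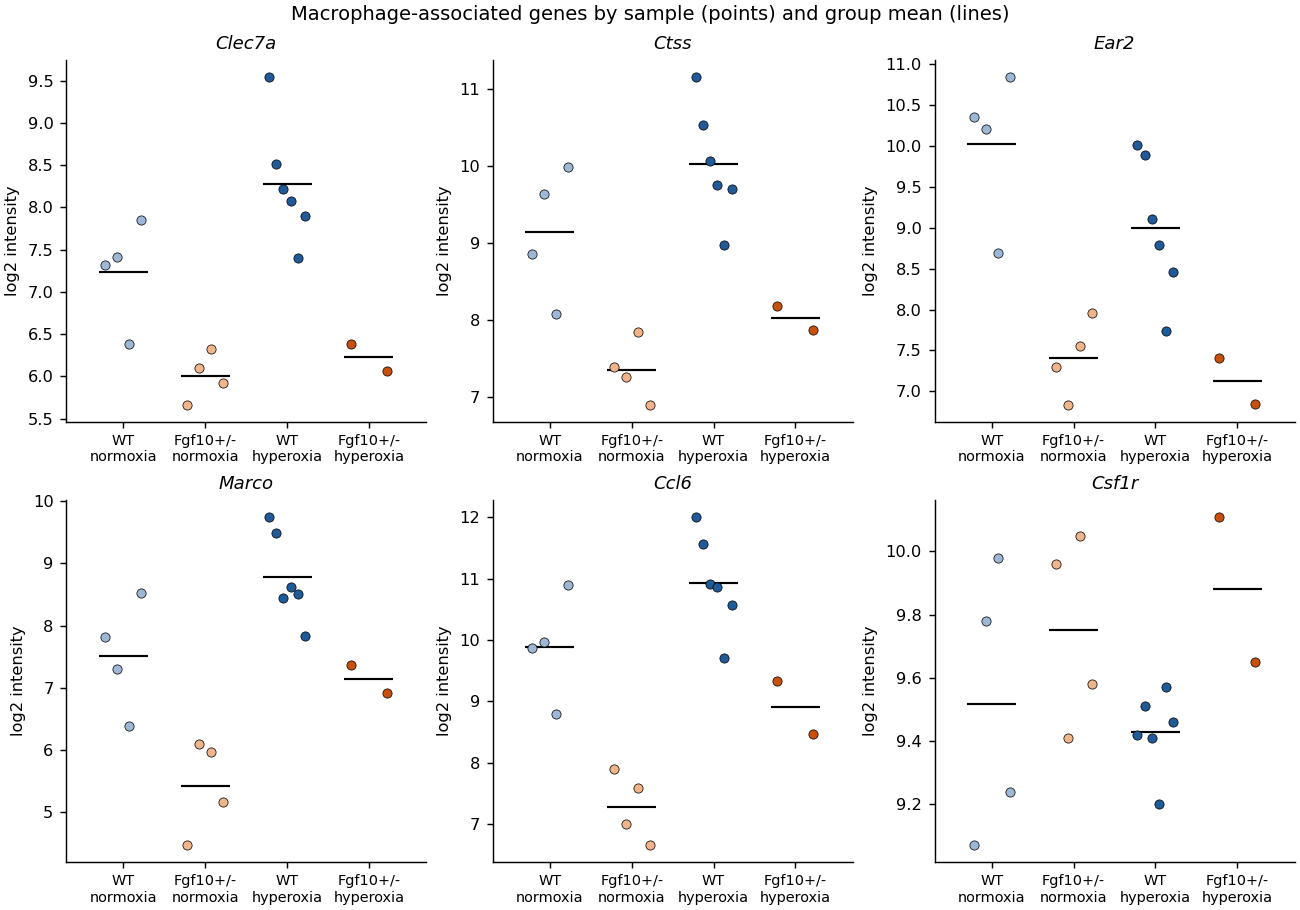
Log2 intensity of Clec7a, Ctss, Ear2, Marco, Ccl6 and Csf1r in each of the 16 samples, with 1 point per sample and a line at the group mean. In the first 5 genes the Fgf10+/- hyperoxia points lie below all 6 wild-type hyperoxia points, and in Csf1r they lie above them.

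Fgf10 was at 5.38 and 4.76 in Fgf10+/- and at 4.71 to 5.45 (median 5.14) in wild type, a difference of -0.06 with a 95% interval of -0.84 to 0.72 (limma adjusted p = 1.00). The gene is made by mesenchymal cells and was dim here, so its value gives no check of the genotype. Fgfr2, whose IIIb form is the Fgf10 receptor of epithelium, was at 6.90 and 6.18 against 5.88 to 6.93, a difference of -0.04 (95% interval -0.66 to 0.58). Fgfr3, a receptor also made by AT2 cells, was at 10.51 and 10.82 against 10.52 to 10.81, a difference of 0.05 (95% interval -0.54 to 0.64). In none of the 3 genes did both Fgf10+/- values lie on the same side of the wild-type range, and those of Fgfr3 lay just beyond either end of it.

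Of the 20 FGF ligands and receptors 0 had both Fgf10+/- values outside the wild-type range on the same side (against 3.31% below and 3.67% above for all genes). The median was 0.01. Fgf1, an acidic FGF that binds every FGF receptor, overlapped with a difference of 0.29 (95% interval -0.41 to 0.99), and so did Fgf23, a hormone of phosphate balance, which was at 12.68 and 12.14 against 11.11 to 13.55. The list mean of Fgf10+/- replicate 1 (7.53) lay above and that of replicate 2 (7.17) below all wild-type means (7.25 to 7.36).

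Among 25 FGF targets and feedback genes 16 had a negative difference, against 47.3% of all genes, and the median was -0.08. Spry2, a Sprouty inhibitor of receptor signalling that is induced by FGF, was at 5.23 and 4.50 in Fgf10+/- and at 5.32 to 6.75 (median 5.61) in wild type. Both Fgf10+/- values lay below the wild-type range, though replicate 1 only narrowly, with a difference of -0.92 (SE 0.34, limma adjusted p = 1.00), and -0.55 without replicate 2. Mcl1, a survival factor, was at 11.09 in both Fgf10+/- samples against 11.23 to 11.73, a difference of -0.33 (95% interval -0.81 to 0.16).

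The direct targets that follow did not have both values on the same side of the wild-type range. Etv5, an ETS factor needed for AT2 identity, was at 10.95 and 9.72 against 10.29 to 11.12, so only replicate 2 was low in hyperoxia. In normoxia all Fgf10+/- values of Etv5 (10.32 to 10.97) lay below all wild-type ones (11.08 to 11.62), a difference of -0.52. Its relative Etv4 was at 6.14 and 5.89 against 5.81 to 6.84 in hyperoxia. Dusp6, a phosphatase that limits ERK, was at 10.82 and 10.19 against 10.12 to 10.65, and Spry1 at 9.64 and 9.06 against 8.74 to 9.87. Spry4 was dim, and Phlda1 was at 11.41 and 11.43 around a wild-type median of 11.43. For Spry1 and Dusp6 the 95% intervals of -0.63 to 0.61 and -0.47 to 0.63 leave room for differences of less than 1 log2 unit.

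**Figure D3:**
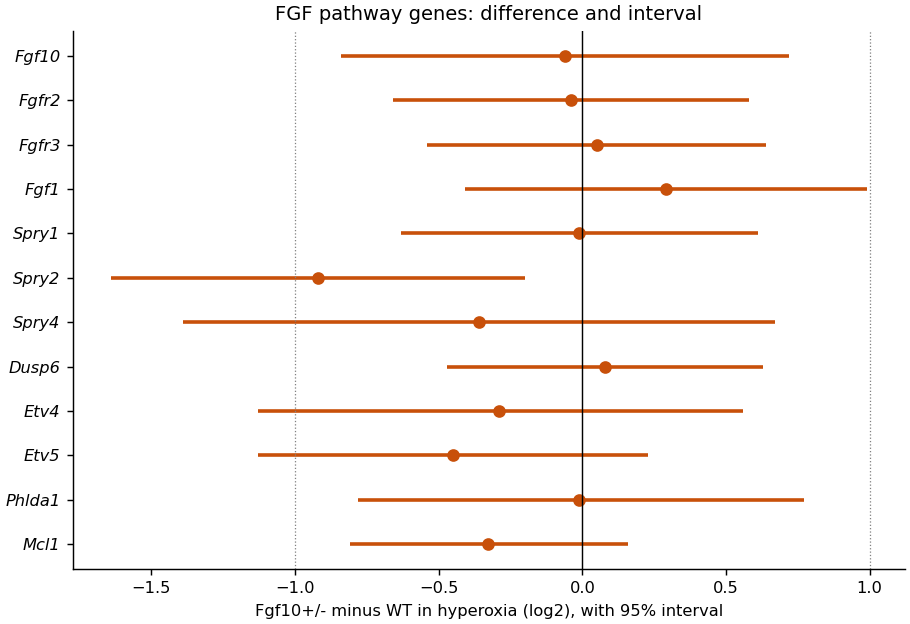
Difference between Fgf10+/- and wild type in hyperoxia (log2, points) with its 95% interval from limma (lines) for 12 FGF ligands, receptors and targets, n = 2 against 6, with dotted lines at -1 and 1. The interval of Spry2 is the only 1 of the 12 that does not include 0, and it is not adjusted for the 20725 genes tested.

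Epithelial identity separated the 2 Fgf10+/- samples from each other. AT1 markers had a positive difference in 17 of 18 members with a median of 0.61, against 47.3% negative among all genes. Of the 18, 0 had an unadjusted limma p under 0.05. The list mean was 10.51 in Fgf10+/- replicate 1 and 9.36 in replicate 2, against 9.13 to 9.62 in wild type, so replicate 1 alone was high. Ager, the receptor for advanced glycation end products and a marker of AT1 cells, was at 12.43 and 11.24 against 10.82 to 11.41. Without replicate 1 its difference was 0.02 instead of 0.62, and that of the membrane protein Emp2 was 0.02 as well. In normoxia 18 AT1 markers had a positive difference and 0 a negative one, with a median of 0.50. The list means there overlapped, at 9.43 to 10.36 in Fgf10+/- and 8.98 to 10.07 in wild type.

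Hopx, a homeodomain cofactor of AT1 cells, was at 12.57 and 11.69 against 11.12 to 11.64, and Clic5, a chloride channel protein, at 11.96 and 11.13 against 10.71 to 11.10. These were the 2 AT1 markers with both Fgf10+/- values above the wild-type range, of 18, against 3.67% of genes. Their second Fgf10+/- value exceeded the highest wild-type value by a small margin, and their limma adjusted p-values were 1.00. Fxyd4, a regulator of the sodium pump, was at 8.43 and 6.74 against 5.75 to 6.63 (1.46, limma adjusted p = 0.958), and the calcium-binding gene S100a14 at 10.97 and 9.67 against 8.76 to 9.39 (1.17, limma adjusted p = 0.958). Without replicate 1 they were at 0.61 and 0.52. The adhesion molecule Cdh13 was at 8.75 and 7.50 against 6.01 to 7.57 (1.67, limma adjusted p = 0.938), with only replicate 1 above the wild-type range, and at 1.04 without replicate 1. In normoxia the differences of Hopx, Clic5, Fxyd4, S100a14 and Cdh13 were 0.58, 0.33, 1.62, 0.92 and 1.52. Only the groups of Fxyd4 did not overlap there.

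AT2 markers were negative in 22 of 25 members with a median of -0.30, against 47.3% negative among all genes. Only 1 member, Lgi3, had an unadjusted limma p under 0.05 (against 2.77% lower among all genes). The list mean was 10.70 in replicate 1, inside the wild-type range of 9.94 to 10.85, and 9.60 in replicate 2, below it. The lipid transporter Abca3 of the lamellar bodies was at 12.72 and 11.59 against 11.81 to 12.67, and Lamp3, a lamellar body membrane protein, at 12.44 and 11.28 against 11.60 to 12.70. Lgi3, a secreted protein of AT2 cells, was at 9.55 and 8.25 against 9.05 to 10.04, a difference of -0.78 (SE 0.34, limma adjusted p = 1.00). In each of these 3 genes only replicate 2 was below the wild-type samples. No AT2 marker of the 25 had both values outside the range on the same side.

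Other lists also placed only 1 of the 2 samples outside the wild-type range. Over the 46 lists, both list means lay below all wild-type means for MHC class II and macrophage markers, both above for 0 lists, on opposite sides for FGF ligands and receptors, 1 of the 2 outside for 15 lists and both inside for 28. In the endothelial list replicate 1 was at 7.58 and replicate 2 at 8.81, against 7.66 to 8.83. A principal component analysis of the 8 samples placed Fgf10+/- replicate 1 at -52.73 on the third component, which held 13.9% of the variance, and the other 7 samples at -18.17 to 28.76. On the first component (27.9%) the Fgf10+/- samples were at 3.48 and 8.70, and the wild-type samples ran from -56.62 to 51.27. On the second (14.7%) they were at 32.34 and -28.45, and wild type ran from -37.56 to 31.62.

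**Figure D4:**
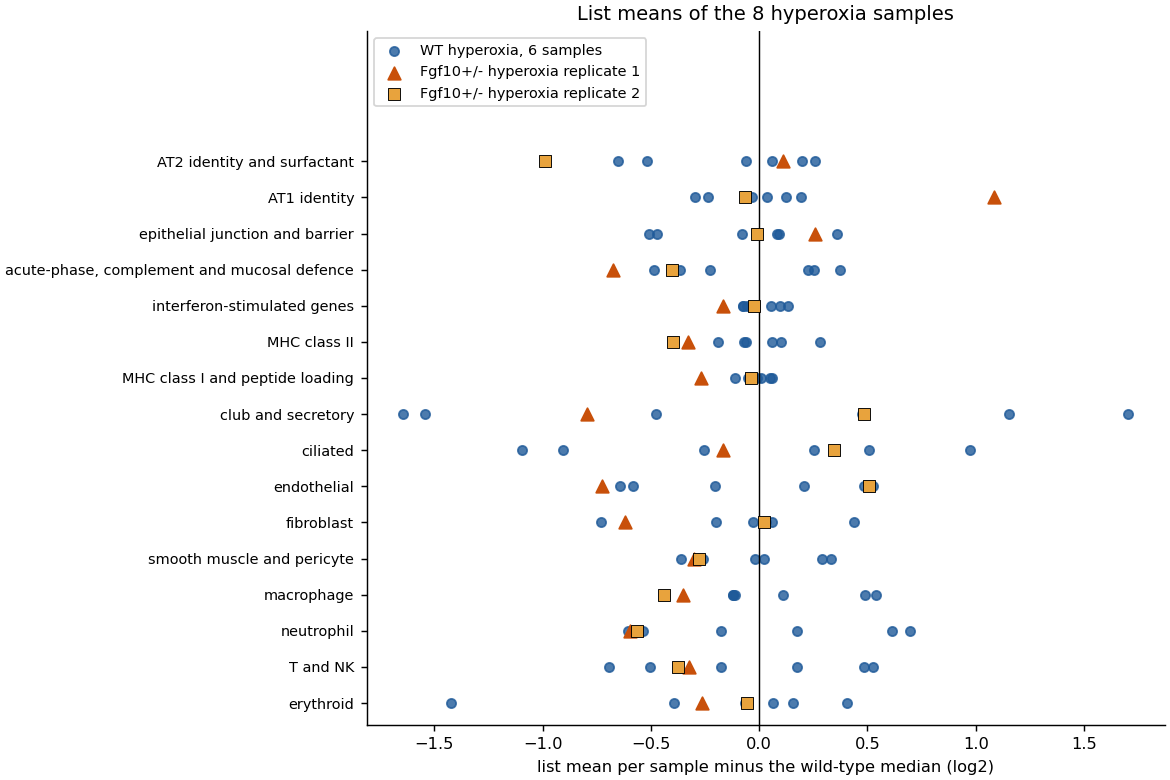
Mean of the members of 16 gene lists in each of the 8 hyperoxia samples, as the difference from the median of the 6 wild-type samples (log2), with circles for wild type and a triangle and a square for Fgf10+/- replicates 1 and 2. Both Fgf10+/- samples lie below all wild-type samples for MHC class II and macrophage lists, while for AT1 markers replicate 1 alone is high and for AT2 markers replicate 2 alone is low.

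Of the 46 lists, acute-phase and complement genes had the largest gap between their medians in the 2 oxygen conditions. Of 29 members 22 had a negative difference in hyperoxia (against 47.3% of all genes), with a median of -0.49. In normoxia 24 had a positive difference, with a median of 0.74. In hyperoxia 0 of the 29 had an unadjusted limma p under 0.05, and 13 had one for the interaction, all negative, against 2.35% of all genes. Cfb, complement factor B, was at 6.09 and 7.37 in Fgf10+/- and at 7.18 to 8.24 in wild type in hyperoxia, but at 10.39 to 12.10 against 7.74 to 10.22 in normoxia. The groups overlapped in hyperoxia and did not in normoxia, with an interaction of -2.86 (SE 0.74, limma adjusted p = 0.988).

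Lcn2, a lipocalin that withholds iron from bacteria, was at 10.08 and 8.18 against 9.49 to 11.11 in hyperoxia, with an interaction of -2.72 (SE 0.71, limma adjusted p = 0.988). Saa3, a serum amyloid made in the lung, was at 6.49 and 7.59 against 6.89 to 9.71, with an interaction of -3.99 (SE 1.30, limma adjusted p = 1.00). C3, the central complement component, was at 12.73 and 14.02 against 13.66 to 14.79, and its 11 features gave differences of -0.69 to -0.84. Slpi, a protease inhibitor of mucosa, was at 10.26 and 10.84 against 10.30 to 11.19 in hyperoxia, a difference of -0.10, beside 2.11 in normoxia. None of these interactions passed adjustment, and for each gene at least 1 Fgf10+/- hyperoxia value lay inside the wild-type range.

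Interferon-stimulated genes, which limit viral growth, had a median of -0.14 in hyperoxia and 0.47 in normoxia. Of 41 members 3 were lower at an unadjusted limma p under 0.05 in hyperoxia (against 2.77% of all genes). Both Fgf10+/- values lay below the wild-type range for 5 members and above it for 2, against 3.31% and 3.67% of all genes. Irgm1, an interferon-induced GTPase, was at 6.28 and 6.56 against 6.92 to 7.71, a difference of -0.71 (limma adjusted p = 0.949). Oas1a, an oligoadenylate synthetase, was at 5.05 and 5.12 against 5.28 to 6.25, a difference of -0.56 (95% interval -1.37 to 0.25), with 1.88 in normoxia and an interaction of -2.44 (SE 0.51, limma adjusted p = 0.551). On its second, dimmer feature the hyperoxia difference was 0.08 and the interaction -0.45. Oasl2, a relative of it, overlapped in hyperoxia, at 6.59 and 6.80 against 6.42 to 7.22, and had an interaction of -1.78 (SE 0.34, limma adjusted p = 0.551). The interaction had an unadjusted limma p under 0.05 in 11 of the 41 genes, all negative, against 2.35% of all genes.

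MHC class I genes, which present peptides to killer T cells, had a median of -0.17 in hyperoxia and 0.36 in normoxia. In 5 of 23 members both Fgf10+/- values lay below all wild-type values (H2-D1, H2-K1, H2-Q6, H2-Q7 and H2-T23), against 3.31% of genes. In 1 member both lay above, against 3.67% of genes. The margins were small: H2-K1 was at 11.44 and 11.30 against 11.52 to 12.03, H2-D1 at 10.02 and 10.06 against 10.08 to 10.63, and H2-T23 at 9.84 and 9.86 against 10.02 to 10.45. None of these 5 low genes had an unadjusted limma p under 0.05, while 1 other member was lower at that limit, against 2.77% of genes. B2m, the shared light chain, overlapped, at 10.68 and 11.22 against 10.97 to 11.59. Of the 23 members 8 had a positive difference. H2-Q4, the brightest member, was 1 of these and overlapped, at 14.82 and 14.81 against 13.71 to 15.34, a difference of 0.22.

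The interaction test called 2 genes of 20725 (0.00965%), both with a negative value, while 852 had an unadjusted limma p under 0.05, 487 negative (2.35%) and 365 positive (1.76%). C1rb, a homologue of the complement protease C1r whose probe may also bind C1ra, was at 4.33 and 4.36 in Fgf10+/- and at 5.50 to 5.89 in wild type in hyperoxia. In normoxia it was at 5.73 to 6.69 in Fgf10+/- and at 4.82 to 5.47 in wild type. The groups did not overlap in either condition and stood in opposite order, with an interaction of -2.20 (SE 0.33, limma adjusted p = 0.0471).

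Psd2, an exchange factor for the small GTPase Arf6, was at 2.93 and 1.93 against 3.26 to 3.87 in hyperoxia and at 4.02 to 4.18 against 2.80 to 3.27 in normoxia, an interaction of -2.22 (SE 0.33, limma adjusted p = 0.0471). Its values lay near the bottom of the arrays, where the first percentile was 2.38. Both calls were lost when genes were limited to a mean of at least 6, which neither feature reaches, and leaving out 1 sample at a time gave 0 called genes for 14 of the 16 samples. Thymocyte markers, whose list mean was 4.01 to 4.42 in the 8 hyperoxia samples, reached 6.38 in Fgf10+/- and 6.43 in wild-type normoxia samples, and their part in the interactions was not tested.

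Among the other interactions with the smallest p-values were those of Il18bp, the binding protein of interleukin-18 (-2.14, limma adjusted p = 0.551), Fga, a fibrinogen chain (1.93, limma adjusted p = 0.988, but -0.71 on its second feature), and the homeobox gene Hoxa10 (2.41, limma adjusted p = 0.988). Cacng4, a calcium channel subunit, had 1.27 (limma adjusted p = 0.988). Il18bp was at 3.89 and 4.67 in Fgf10+/- and 4.49 to 5.71 in wild type in hyperoxia, so the groups overlapped there. Hoxa10 was at 4.79 and 5.06 against 3.09 to 3.86, with both Fgf10+/- values above.

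**Figure D5:**
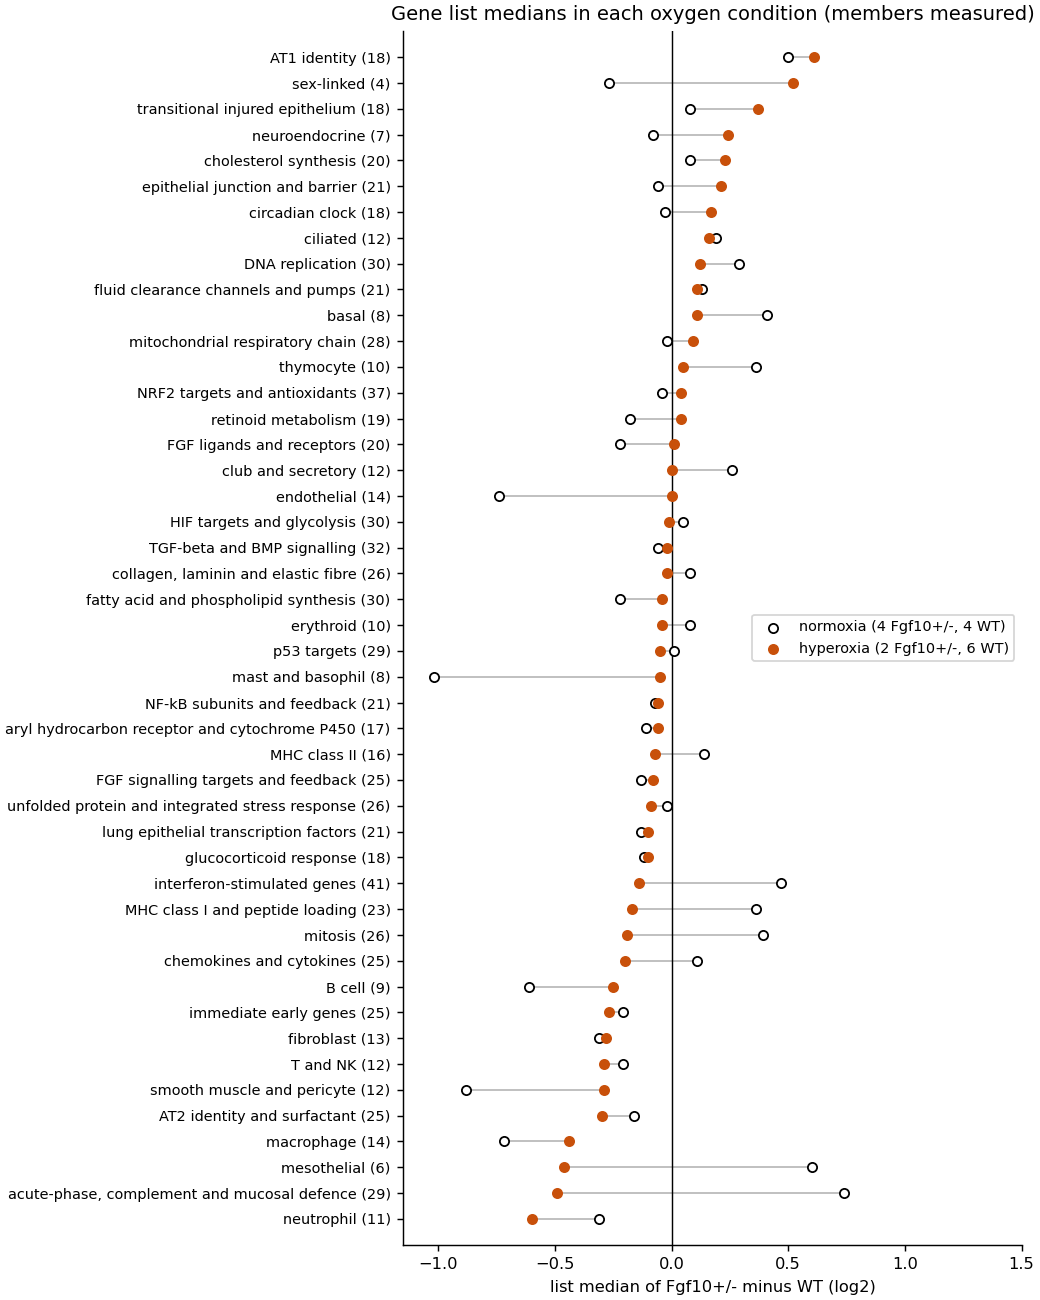
Median over the measured members of 46 gene lists of the difference between Fgf10+/- and wild type (log2) in hyperoxia (filled, n = 2 against 6) and normoxia (open, n = 4 against 4), with the number of members in brackets. The acute-phase list has -0.49 in hyperoxia and 0.74 in normoxia, whereas AT1 markers have 0.61 and 0.50 and macrophage markers -0.44 and -0.72.

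The genes with the smallest p-values in the hyperoxia comparison were mostly dim. Olfr692, an olfactory receptor gene, was higher in Fgf10+/-, at 4.34 and 4.68 against 3.14 to 3.57 (1.16, limma adjusted p = 0.310). Snrpn, an imprinted splicing protein gene whose transcript also carries Snurf, was at 5.52 and 5.59 against 4.43 to 4.85 (0.92, limma adjusted p = 0.672). With the mean of its 3 features Snrpn gave 0.40, and 1 of them gave -0.20.

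Pdc, a phosducin of photoreceptors, was at 5.39 and 5.07 against 3.75 to 4.47 (1.17, limma adjusted p = 0.688), and Slc10a7, a solute carrier, at 5.07 and 4.95 against 2.87 to 4.34 (1.42, limma adjusted p = 0.746). Tmem177, a mitochondrial membrane protein, was at 5.76 and 5.74 against 4.67 to 5.25 (0.80, limma adjusted p = 0.927). For Tmem177 the mean of both features gave 0.01, and for Pdc 0.71. On the features shown for these 5 genes the Fgf10+/- samples lay above the wild-type range.

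On the lower side Colca2 was at 2.28 and 2.81 against 3.85 to 4.69 (-1.79, limma adjusted p = 0.289), the olfactory receptor gene Olfr58 at 2.14 and 1.88 against 3.13 to 4.50 (-1.75, limma adjusted p = 0.310), and the membrane protein gene Ms4a6c at 1.99 and 3.32 against 3.93 to 5.03 (-1.84, limma adjusted p = 0.310). Without replicate 1 Ms4a6c was at -1.17, and without replicate 2 at -2.50. The Fgf10+/- values of the 3 genes lay under the first percentile of all values, 2.38, apart from those of Colca2 (2.81) and Ms4a6c (3.32) in replicate 2. C1rb and Clec7a completed the 5 smallest p-values on this side, and Clec7a was the only 1 of the 10 with a mean above 6 in wild type.

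Stress responses of the injured lung had medians near zero. p53 targets, the response to damaged DNA, had a median of -0.05 over 29 members. Cdkn1a, the cell cycle inhibitor p21, was at 10.09 and 10.06 against 9.75 to 10.24, a difference of 0.08 (95% interval -0.38 to 0.54), and Mdm2, the ligase that degrades p53, at 10.46 and 10.39 against 10.25 to 10.73, a difference of -0.05 (95% interval -0.45 to 0.35). Both intervals lay within 1 log2 unit of zero. At an unadjusted limma p under 0.05, 3 of the 29 were lower (Pmaip1, Plk2 and Gdf15) and 0 higher, against 2.77% and 1.60% of all genes.

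NRF2 targets and antioxidant genes had a median of 0.04 over 37 members, with 1 lower at an unadjusted limma p under 0.05 (against 2.77% of all genes). That gene was Slc7a11, the cystine importer for glutathione synthesis, at 3.36 and 3.04 against 3.99 to 4.95 (-1.29, limma adjusted p = 0.938). Sod2, the mitochondrial superoxide dismutase, was at 11.84 and 12.19 against 11.41 to 12.62, a difference of 0.02 (95% interval -0.71 to 0.75), and Nqo1, a quinone reductase, was dim, at 5.75 and 5.19 against 4.08 to 5.94. Mitochondrial respiratory chain genes had a median of 0.09 over 28 members, and the interval of each of the 28 lay within 1 log2 unit of zero.

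Mki67, the marker Ki-67, was at 8.47 and 8.58 against 7.69 to 10.15 in wild type, a difference of -0.21 with a wide 95% interval of -1.31 to 0.89. Of 26 mitosis genes 22 were negative (against 47.3% of all genes), with a median of -0.19 and 0 at an unadjusted limma p under 0.05. The list mean was 5.56 and 5.63 against 5.38 to 6.54. DNA replication genes had a median of 0.12 over 30 members. Of these 1 had both Fgf10+/- values below the wild-type range (against 3.31% of all genes). It was the sliding clamp Pcna, at 10.23 and 10.35 against 10.37 to 10.69.

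Single members of other lists stood outside the wild-type range. Of 25 chemokines and cytokines 2 lay above it in both Fgf10+/- samples and 1 below it. Of 21 NF-kB genes 1 lay above it and 2 below. The shares of all genes were 3.67% above and 3.31% below. Cxcl3, a neutrophil chemokine, was at 4.79 and 6.03 against 2.94 to 4.17 (1.65, limma adjusted p = 0.938, and 1.03 without replicate 2), and Ccl9, a chemokine of myeloid cells, at 6.14 and 5.56 against 6.49 to 7.54 (-1.09, limma adjusted p = 0.958). Tnfaip2, a gene induced by tumour necrosis factor, was at 5.40 and 5.83 against 6.48 to 7.21 (-1.21, limma adjusted p = 0.746), and the NF-kB subunit gene Rel at 3.17 and 2.71 against 3.75 to 4.33. Rel in both groups and Cxcl3 in wild type were dim. The NF-kB list as a whole had a median of -0.06, with Nfkbia, the inhibitor IκBα, at 12.15 and 12.34 against 12.29 to 12.59.

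Lipid genes had a median of -0.04 over 30 members for fatty acids and phospholipids and 0.23 over 20 for cholesterol synthesis. Both Fgf10+/- values lay below the wild-type range for 3 of the 30 and above it for 1, against 3.31% and 3.67% of all genes. Abca1, the exporter of cholesterol, was at 4.93 and 4.90 against 5.47 to 5.83 (-0.75, limma adjusted p = 0.927), and was also 0.85 lower in normoxia. Plin2, the coat protein of lipid droplets, was at 9.20 in both Fgf10+/- samples against 9.36 to 10.09 (-0.52, limma adjusted p = 1.00). Hmgcs1, an early enzyme of cholesterol synthesis, overlapped, at 10.58 and 10.34 against 9.62 to 10.81.

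Neutrophil markers had a median of -0.60 over 11 members, and 2 of them were lower at an unadjusted limma p under 0.05, against 2.77% of all genes. Mmp8, a neutrophil collagenase, was at 3.76 and 3.55 against 4.09 to 5.02 (-1.01, limma adjusted p = 0.938). S100a9, the abundant calprotectin chain of neutrophils, overlapped, at 10.97 and 12.03 against 11.09 to 13.39. Csf3r, the brightest member, overlapped too, at 13.77 and 13.66 against 12.88 to 14.39, with a positive difference of 0.11. The list mean was 6.78 and 6.81 against 6.77 to 8.07, at the low end of the wild-type range but inside it. The medians were -0.28 for fibroblast markers and -0.29 for markers of T and NK cells, with 0 members of either at an unadjusted limma p under 0.05.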

How the data were processed

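Total RNA of AT2 cells was labelled with Cy3 and read on 1-colour Agilent arrays, per the labels' protocols. The deposited values were taken as log2 intensities from their range (-0.40 to 15.98). The sources used here do not give the log base, the software or the background correction. After sorting, no position differed by more than 0.20 between arrays, so the authors' table already shared 1 distribution. No detection flags or slide labels were used here, and precision is set by the number of arrays.

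Of 62976 features 65 had missing values. Probe annotation gave 31465 features 1 symbol, 0 several and 31511 none, and symbols were updated through RefSeq GRCm38.p6 (29050 by accession, 2061 by symbol, 349 by synonym, 5 kept). The feature with the highest mean stood for each of 20725 genes. Group means were fitted to all 16 samples in R 4.3.3 by the linear models of limma 3.58.1 with moderated variance (12 residual and 4.38 prior degrees of freedom), with Benjamini-Hochberg adjustment over all genes and a threshold of 0.05. The fit was checked on simulated data, in 5 runs with 200 changed genes. For the interaction 3.8% of the 2-fold and 47% of the 4-fold changes were found. False calls made up 6.07% of calls in the hyperoxia comparison and 8.63% for the interaction.

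The 46 lists (30 pathway, 16 cell type, 897 of 928 members measured) and the samples compared were chosen with earlier results of these data known. A fixed rule drew the 5 smallest p-values in each direction, since fewer were called, and the 4 smallest interaction p-values in each direction. It also drew the 2 brightest members of each list without a called member, and Fgf10, Fgfr2, Sftpc, Cdkn1a, Mki67, Nqo1, Ager and Ciita. Not every gene drawn is described above. Sftpd, Hp, Gprc5a, Krt18, Ifi27, Irf1, Cxcl15, Hspa5 and Jun are among those not described. The rule passed over predicted and clone-named genes. Other genes were chosen after their values were seen, among them H2-Aa, H2-Eb1, H2-DMb1, Ctss, Ccl6, Mpeg1, Marco, Irgm1, Cfb and Spry2.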

Additional observations from a re-analysis of the deposited data

Results flagged for a closer look

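C1rb and Psd2 were the genes whose genotype difference in hyperoxia differed from that in normoxia past the threshold, by -2.20 and -2.22 on the log2 scale (limma interaction). Of 110 genes checked for a wild-type hyperoxia sample far from the other 5, 3 had one, and chance gives about 1 in 20. H2-K1 was at 12.03 in wild-type replicate 6, with the next sample at 11.70. Cdh13 was at 7.57 in replicate 5, with the next at 6.59. Irgm1 was at 7.71 in replicate 2, with the next at 7.07.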

How the results depend on the processing

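The count of 0 genes in the hyperoxia comparison held with only the 8 hyperoxia samples, median-centred arrays, the mean of all features, genes with a mean of at least 6, a trended and robust variance, array weights and each cell type covariate. It was 2 when every feature was tested, an alternative added after seeing the data, as was the macrophage covariate. Leaving out 1 sample gave 0 to 4 genes, with 15 of 16 fits at 0. The 4 genes (Clec4f, Mrgpre, Rhox10 and Slc22a30) arose without Fgf10+/- replicate 1, where the fit gives the lone sample the spread of the other groups. The interaction count of 2 stayed 2 with median centring, the mean of features and array weights. It was 0 with the mean filter, the trended and robust variance, the T and NK, fibroblast and smooth muscle, or macrophage covariate, and with every feature tested. Leaving out 1 sample gave 0 to 3, with 14 of 16 fits at 0. With the replicate block the counts were 0 and 0. The deviations of same-numbered hyperoxia samples from their group means had r of 0.05 and -0.01. With 2 Fgf10+/- samples the deviations of 1 mirror those of the other, so this cannot decide whether the numbers mark pairs. The main fit did not take them as pairs. Of 2828 alternative values of 110 genes 85 moved by at least 1 SE of the difference in the main fit. In all 106 changed sign, but 0 of 1045 did so for the 41 genes with an unadjusted limma p under 0.05. Low signal limits dim genes.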

Other observations

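When all 62911 features without missing values were tested, 2 were lower in Fgf10+/- in hyperoxia by limma, each with a Benjamini-Hochberg adjusted p = 0.00202. The first, which has no gene listed here, was at 0.25 and 0.16 in the Fgf10+/- samples, at 2.93 to 4.31 in wild type in hyperoxia and at 2.50 to 3.92 in normoxia. The second, listed under Mrap2, was at 0.08 and -0.01, against 2.91 to 3.69 and 2.66 to 4.14. The brighter Mrap2 feature that stood for the gene differed by 0.63 (limma adjusted p = 1.00). Fgf10+/- values of both features lay far below the first percentile of all values, 2.38.

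The 4 genes called without Fgf10+/- replicate 1 had a similar form. Rhox10 was at 0.78 in replicate 2 and 3.76 in replicate 1, against 3.60 to 4.28 in wild type. Clec4f was at 0.74 and 3.83, Slc22a30 at 0.86 and 4.00, and Mrgpre at 2.19 and 4.47.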
